A study of Rattus norvegicus with 2 samples.

Results

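The genes described here are 8 small leucine-rich proteoglycans (SLRPs) and versican, 9 of the 16846 gene symbols measured. They were chosen by name: decorin (Dcn), biglycan (Bgn), asporin (Aspn), lumican (Lum), fibromodulin (Fmod), prolargin (Prelp), osteomodulin (Omd), osteoglycin (Ogn) and versican (Vcan). All 9 had a row and reads in both libraries. The samples were 2 strand-specific poly(A) RNA-seq libraries, 1 per group, from cells of neonatal rat ventricles taken at postnatal day 0. The anti-miR library came from cultures given AAV2/9, an adeno-associated virus, for 7 days to deliver hairpins that block the let-7 and miR-99/100 families. The control library came from cultures described as receiving an empty AAV in one label and as mock-transduced in another. Both cultures were prepared as cardiomyocytes by leaving the cells for 2 h on uncoated plastic and keeping those that did not attach, with a stated purity above 90%. No promoter or cell type that limits the hairpins is given in the labels, and the number of animals behind each culture is not given either.

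SLRPs are secreted proteins whose leucine-rich repeats bind fibrillar collagen and set how fibrils grow and space. Most carry chondroitin, dermatan or keratan sulfate chains, and several bind growth factors of the TGF-beta family or their receptors. Versican is a large chondroitin sulfate proteoglycan that binds hyaluronan and fills the loose matrix of the developing heart, where it is cleaved by ADAMTS proteases. In the heart SLRPs are made mainly by fibroblasts and valve interstitial cells.

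The sequences of the inhibited miRNAs are shown because they define the treatment; the seed, bases 2 to 8, is in capitals. They are from RefSeq, build GRCr8, and the miR-99a-5p sequence is named only. let-7a and let-7c share 1 seed, and miR-100 and miR-99b share another.
rno-let-7a-5p: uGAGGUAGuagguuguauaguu
rno-let-7c-5p: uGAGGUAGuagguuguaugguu
rno-miR-100-5p: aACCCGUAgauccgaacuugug
rno-miR-99b-5p: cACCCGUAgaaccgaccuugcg

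The anti-miR library held 14815846 reads on genes and the control library 16031780. Levels are in RPM (a gene's reads for every 1000000 assigned to genes), and levels of different genes are compared as RPKM, RPM per 1000 bases of exon. Each group was 1 library, so the spread between cultures is unknown and no difference below has a replicate check. Intervals are exact 95% ones for counting error alone, and copies made by PCR are not separate molecules. A log2 ratio is anti-miR over control in RPM after adding 0.1 to each, which understates differences of low genes. Summed over 12 fibroblast markers the level was 21994 RPKM in the anti-miR and 21587 RPKM in the control library, over 10 macrophage markers 5142 and 4628 RPKM, and over 11 measured cardiomyocyte markers 230.1 and 206 RPKM. Lyz2 alone gave 3323 and 2478 RPKM of the macrophage sums, in the same order. Col1a1, Col3a1 and Col1a2 gave 8676, 5549 and 4809 RPKM of the fibroblast sum in the anti-miR library, and 8512, 5561 and 4729 RPKM in the control. By median RPM over each list, macrophage markers were the higher, at 362 and 367 against 316 and 270 for fibroblast markers. Of the 9 macrophage markers averaging 1 RPM or more, 5 had a log2 ratio above 0 and 4 below. Markers of the labelled cell type were thus the lowest of these 3 lists in both libraries. Each of the 11 had a read in at least 1 library. Tnnt2 and Actc1, with the most reads, had 2388 and 1315 in the anti-miR library, against 2363 and 1234 in the control. Myh7 had 171 reads against 99, Nppa 139 against 91 and Actn2 56 against 50. Myh6, Ryr2, Myl3 and Tnni3 had 23, 20, 19 and 5 reads in the anti-miR library and 0 in the control, while Myl2 had 5 reads against 30 and Pln 100 against 135. In bulk RNA, fewer cells of a type and less RNA per cell cannot be told apart.

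Together the 9 genes took 1.20% of reads in the anti-miR library (exact binomial 95% interval 1.19 to 1.20) and 1.19% in the control (1.19 to 1.20). The ratio of these shares was 1.01 (0.999 to 1.01). Bgn alone supplied 78.0% of the reads on the 9 genes in the anti-miR library and 77.9% in the control. Below this steady sum, Dcn and Fmod were higher in the anti-miR library, Prelp was lower, and the other members lay within smaller distances of the control. No member reached a 1.5-fold difference: 0 of 9 were at least 1.5-fold higher, against 10.8% of the 10365 genes whose mean reached 1 RPM, and 0 of 9 were at least 1.5-fold lower, against 8.56%. The median log2 ratio of the 9 was −0.09, with 4 above 0 (among them Bgn, which other scalings put below) and 5 below, against a median of 0.03 over the 10365 genes. All 9 members averaged 30 RPM or more, the lowest being Omd. Among the 5101 genes at that level, 1.59% were at least 1.5-fold higher and 1.51% at least 1.5-fold lower. At least 25% higher were 2 of the 9 genes, against 10.3% of those 5101 genes, and 1 had a ratio of at most 0.8, against 8.51%; with 9 genes these counts lie near that background.

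**Figure D1:**
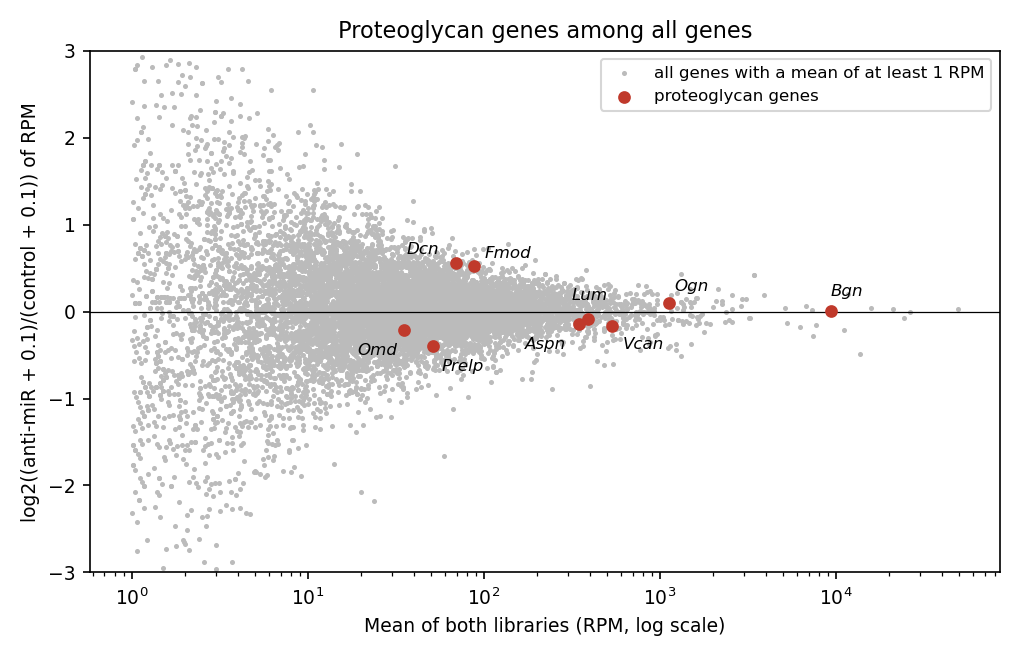
The log2 ratio of anti-miR over control (vertical axis) is plotted against the mean level of both libraries in RPM (horizontal axis, log scale), with 1 point per gene and the 9 proteoglycan genes in red; 110 genes lie beyond the vertical limits of −3 and 3. Dcn at 0.56 and Fmod at 0.52 lie above most genes of their level, and Bgn at 0.01 is the most abundant of the 9.

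Biglycan and decorin are class I SLRPs that carry chondroitin or dermatan sulfate, bind type I collagen and bind TGF-beta. Bgn (chromosome X, 159380557 to 159393409, rn4) had 138504 reads or 9348 RPM in the anti-miR library, against 148684 reads or 9274 RPM in the control. Its ratio was 1.01 (1.001 to 1.02), and was just below 1 with median-of-ratios, TMM or upper quartile scaling. Dcn (chromosome 7, 35004234 to 35045189) was far less abundant, with 1232 reads or 83.2 RPM in the anti-miR library and 902 reads or 56.3 RPM in the control. Its ratio of 1.48 (1.36 to 1.61) was the highest of the 9. Of the 7935 genes whose mean reached 10 RPM, 466 had a higher ratio than Dcn.

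The level of Dcn therefore differed more between the libraries than that of its closest relative, while staying a small fraction of it. Per length, Bgn was 74.6 times as abundant as Dcn in the anti-miR library and 109 times in the control. The quotient of Dcn over Bgn reads was 1.47-fold higher in the anti-miR library (1.34 to 1.60), which is nearly the Dcn ratio itself because Bgn hardly differed. Asporin, the remaining class I member, lacks the chain attachment site of the other class I members and competes with decorin for collagen. Aspn (chromosome 17, 21035597 to 21058999) had 4868 reads or 329 RPM in the anti-miR library, against 5804 reads or 362 RPM in the control, a ratio of 0.908 (0.873 to 0.943). The 3 genes of class I thus lay on both sides of 1.

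The class II members bind collagen fibrils and, in several tissues, carry keratan sulfate. Lum (chromosome 7, 35083480 to 35090284), which in mice is needed for the regular fibrils of the cornea, had 5609 reads or 379 RPM in the anti-miR library, against 6441 reads or 402 RPM in the control. Its ratio was 0.942 (0.909 to 0.977). Fmod (chromosome 13, 46987714 to 46998331), whose product shares a collagen binding site with lumican and affects collagen cross-linking, had 1530 reads or 103 RPM in the anti-miR library and 1151 reads or 71.8 RPM in the control. Its ratio of 1.44 (1.33 to 1.55) was the next highest after Dcn, and 550 of those 7935 genes had a higher one.

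The remaining class II genes, Prelp and Omd, were lower in the anti-miR library, as Lum was. Prelp (chromosome 13, 46863394 to 46874172), whose product links collagen to heparan sulfate of basement membranes, had 657 reads or 44.3 RPM in the anti-miR library, against 935 reads or 58.3 RPM in the control. Its ratio of 0.760 (0.687 to 0.841) was the lowest of the 9, and 732 of the 7935 genes had a lower one. Omd (chromosome 17, 21015179 to 21023126), known from mineralised tissue, had 480 reads or 32.4 RPM in the anti-miR library and 602 reads or 37.6 RPM in the control, a ratio of 0.863 (0.764 to 0.974). The central 90% of log2 ratios of the 5101 genes averaging 30 RPM or more ran from −0.41 to 0.43. Dcn and Fmod lay above that range, and Prelp, at −0.39, lay just inside it with the remaining members.

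Osteoglycin, also called mimecan, is a class III SLRP that is abundant in the matrix of the heart. Ogn (chromosome 17, 20987029 to 21007525) had 17119 reads or 1155 RPM in the anti-miR library, against 17356 reads or 1083 RPM in the control, a ratio of 1.07 (1.04 to 1.09). Vcan (chromosome 2, 19712629 to 19812494), the hyaluronan-binding member, had 7521 reads or 508 RPM in the anti-miR library and 9108 reads or 568 RPM in the control, a ratio of 0.894 (0.867 to 0.921). The deposited row of Vcan is a transcript of 11976 bases, so splice forms that lack its chondroitin sulfate domains were not told apart. The counting interval excluded 1 for all 9 genes, above 1 in 4, with Bgn among them only on the scale of column totals, and below 1 in 5. The same held above 1 for 34.6% and below 1 for 29.95% of the 5101 genes averaging 30 RPM or more, so at this depth counting error is small and an interval that excludes 1 is common. An exact binomial test on the reads, Benjamini-Hochberg adjusted over 10365 genes at 0.05, compares these 2 libraries and not the conditions. It called 3 members higher, against 31.7% of those 10365 genes, and 5 lower, against 26.4%, leaving out Bgn. The 10365 include genes of lower level than any member, so this background is not matched for level.

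**Figure D2:**
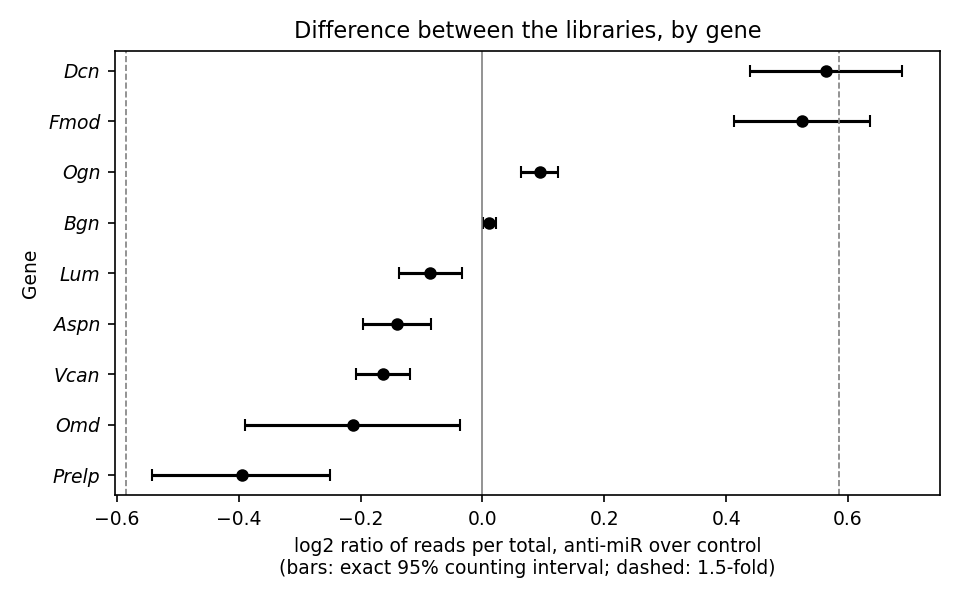
The log2 ratio of reads per total, anti-miR over control (horizontal axis), is drawn for each of the 9 genes, with bars for the exact 95% counting interval and dashed lines at 1.5-fold. The ratios run from 0.760 for Prelp to 1.48 for Dcn, and the intervals of Dcn and Fmod reach past the 1.5-fold line.

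Per length, the 9 genes spanned more than 100-fold. In the anti-miR library the order was Bgn at 3863 RPKM, Ogn at 437, Lum at 219.7, Aspn at 217, Dcn at 51.8, Vcan at 42.4, Fmod at 35.1, Prelp at 31.4 and Omd at 21.3. In the control it was Bgn at 3832 RPKM, Ogn at 409.8, Aspn at 239, Lum at 233, Vcan at 47.4, Prelp at 41.2, Dcn at 35.0, Omd at 24.7 and Fmod at 24.4. The 4 most abundant genes were thus the same in both libraries, with Lum and Aspn in exchanged places. The order among the other 5 differed too. The counting intervals of neighbours in that order overlapped for Lum and Aspn in either library, for Fmod and Prelp in the anti-miR library (33.4 to 36.9 and 29.0 to 33.9 RPKM), and for Omd and Fmod in the control (22.8 to 26.7 and 23.0 to 25.9 RPKM). Bgn made up 79.2% of the summed RPKM of the 8 SLRPs in each library. Dcn made up 1.06% of that sum in the anti-miR library and 0.724% in the control, and Ogn 8.97% and 8.47%. These levels rest on 1 transcript model per gene, and a model that misses exons would lower the count and the length together. The opposite holds for a long model such as the 11976 bases of Vcan. Shorter splice forms would cover only part of it, so the RPKM and place of Vcan may be understated.

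**Figure D3:**
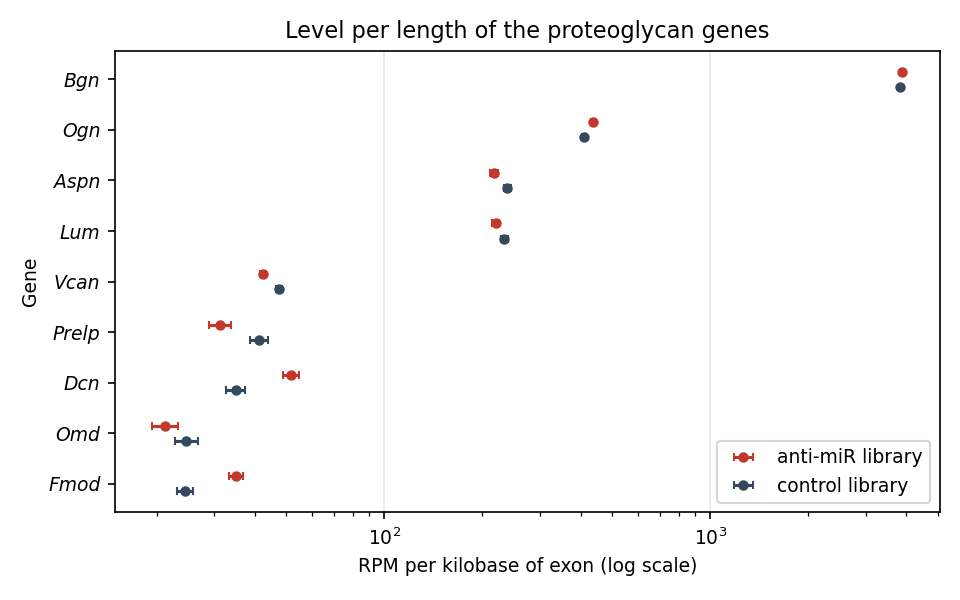
The level per length of each of the 9 genes is plotted in RPM per kilobase of exon (horizontal axis, log scale), with the anti-miR library in red above the control library in dark blue and bars for the exact 95% counting interval. Bgn at 3863 and 3832 RPKM stands apart. Lum and Aspn change places between the libraries, as do the genes between 21.3 and 51.8 RPKM.

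The SLRP genes lie in clusters of neighbours that are thought to come from duplications, and the deposited rn4 positions showed 3 such places. On chromosome 7, Dcn, Lum, Kera (keratocan) and Epyc (epiphycan) followed each other on the plus strand, with 38290 bases and 0 other measured genes between Dcn and Lum. On chromosome 17, Ogn, Omd and Aspn followed each other on the minus strand, 7653 and 12470 bases apart. On chromosome 13, Optc (opticin) and Prelp lay 5293 bases apart on the minus strand and Fmod 113541 bases further on the plus strand. Bgn and Vcan had no member beside them.

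Neighbours differed widely in level. Ogn was 20.5 times as abundant per length as Omd in the anti-miR library and 16.6 times in the control, and Aspn was 10.2 and 9.67 times as abundant as Omd. On chromosome 7, Dcn stood at 0.236 times the RPKM of Lum in the anti-miR library and 0.150 times in the control, and Kera had 0 reads in both, which allows up to 0.202 and 0.187 RPM. In each of the 3 clusters, members lay on opposite sides of the control. The quotient of Fmod over Prelp was 1.12 RPKM per RPKM in the anti-miR library and 0.592 in the control, a 1.89-fold difference (1.66 to 2.15). The quotient of Dcn over Lum reads differed 1.57-fold (1.43 to 1.72), and that of Ogn over Omd 1.24-fold (1.09 to 1.40). For Aspn over Omd the difference was 1.05-fold with an interval of 0.926 to 1.20, which includes 1. These were among 8 pairs of members compared, without adjustment.

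The 250 bases before the RefSeq start of Ogn, Omd and Fmod (build GRCr8, not converted to rn4) are shown because the first pair are adjacent genes of very different level and Fmod is a member with a high ratio. Capitals mark, on either strand, the TATA box searched as TATAAA, the CAAT box searched as CCAAT and the GC box searched as GGGCGG. Ogn is chr17:15258996-15259245, minus strand; Omd is chr17:15274871-15275120, minus strand; Fmod is chr13:48045317-48045566, plus strand.
Ogn: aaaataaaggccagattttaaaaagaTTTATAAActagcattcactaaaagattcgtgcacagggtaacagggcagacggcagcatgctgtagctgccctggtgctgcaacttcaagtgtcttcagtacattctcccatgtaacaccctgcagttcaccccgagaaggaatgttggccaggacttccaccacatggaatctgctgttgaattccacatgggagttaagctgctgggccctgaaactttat
Omd: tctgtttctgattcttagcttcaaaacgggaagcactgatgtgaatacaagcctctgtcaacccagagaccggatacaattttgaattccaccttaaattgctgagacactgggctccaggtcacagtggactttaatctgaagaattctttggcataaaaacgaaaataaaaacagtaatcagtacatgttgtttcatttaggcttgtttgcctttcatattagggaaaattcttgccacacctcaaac
Fmod: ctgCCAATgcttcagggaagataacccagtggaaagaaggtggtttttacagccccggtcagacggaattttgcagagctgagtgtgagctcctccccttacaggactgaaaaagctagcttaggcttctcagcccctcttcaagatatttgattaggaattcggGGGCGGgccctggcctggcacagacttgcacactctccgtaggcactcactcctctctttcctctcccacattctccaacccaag
The Ogn window held the TATA letters on both strands, in overlapping matches. The Omd window held none of the 3 motifs, and the Fmod window held the CAAT and GC letters. The window of Aspn, the other neighbour of Omd, also held none of the 3. Per length, Aspn was 10.2 times as abundant as Omd in the anti-miR library and 9.67 times in the control. These letters therefore did not separate Aspn from Omd. The Lum window held the CAAT letters. The Vcan windows held the GC letters, with the CAAT letters in only 1 of them. Over all 33469 RefSeq promoter windows of this length, 12.9% held the TATA letters, 34.0% the CAAT letters and 30.5% the GC letters. A match is a description of these letters and not a site of binding. Windows were given for 6 of the 9 members; those of Dcn, Bgn and Prelp were not analysed here.

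Other genes of the same biology were counted from 9 further lists, over their genes averaging 1 RPM or more and against the background shares at 1.5-fold given above. Of 10 other SLRP genes listed, 6 were measured and 3 reached that level, with a median log2 ratio of −0.26, 0 at least 1.5-fold higher and 1 lower. Under no floor, or one of 10 RPM, the median was −0.03. Tsku (tsukushi), with the most reads, had 68.3 RPM in the anti-miR library and 82.0 RPM in the control, at −0.26. Epyc, at 0.21, had 27.1 and 23.5 RPM, and Optc had 12 reads against 30, a ratio of 0.433 (0.202 to 0.871). Kera and Chad had 0 reads in both libraries.

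The partners of versican included hyaluronan synthases, link proteins and the related aggrecan. Of 18 listed genes, 16 were measured and 8 lay above the level, with a median of −0.12, 0 at least 1.5-fold higher and 2 lower. That median turned to 0.19 when only genes of 10 RPM or more were kept. Acan, encoding aggrecan, had the highest mean, with 94.2 RPM in the anti-miR library and 103 RPM in the control. Hyal2, a hyaluronidase, was highest at 0.23, and Hapln3, a link protein, lowest at −0.87 with 13 reads against 27, a counting interval of the ratio of 0.247 to 1.05 that includes 1. Of 7 versican-cleaving ADAMTS proteases, 5 were measured, all above the level, with a median of 0.25 and 0 at least 1.5-fold higher or lower. Adamts1 had 247 RPM in the anti-miR library and 277 RPM in the control, a log2 ratio of −0.17 beside the −0.16 of Vcan. Adamts15 was highest at 0.39 and Adamts9 lowest at −0.25.

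Enzymes that process the core proteins and build their chains showed no common direction. Of 5 genes for processing of propeptides, 4 were measured and 3 lay above the level, with a median of −0.03 and 0 at least 1.5-fold apart. Pcolce, the procollagen C-proteinase enhancer, had 1152 RPM in the anti-miR library and 1149 RPM in the control, and Tll1, a tolloid-like protease, was lowest at −0.27. Of 22 enzymes of the linker region and of chondroitin or dermatan sulfate, 19 were measured and 18 lay above the level, with a median of −0.05, 1 at least 1.5-fold higher and 1 lower. Chpf, a chondroitin polymerizing factor, had 363 RPM in the anti-miR library and 339 RPM in the control. Csgalnact1, which starts chondroitin chains, had 208 reads or 14.04 RPM in the anti-miR library, against 418 reads or 26.1 RPM in the control, a ratio of 0.538 (0.454 to 0.637).

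Chst7, a chondroitin sulfotransferase, had 62 reads in the anti-miR library and 0 in the control. Its RPM was 22.4 times that of a floor of 3 reads per library, and the exact lower 95% limit of its ratio was 17.7. Reads in 1 library only were seen for 985 genes in all, of which 85 had 30 or more reads in the other library, 59 of them at 0 in the control and 26 at 0 in the anti-miR library. Of 9 enzymes of keratan sulfate and tyrosine sulfation, 8 were measured and 6 lay above the level, with a median of 0.18 and 0 at least 1.5-fold apart. B3gnt2, which elongates lactosamine chains, had 85.2 RPM in the anti-miR library and 75.7 RPM in the control. Chst1, a keratan sulfate sulfotransferase, was highest, with 33.01 and 23.5 RPM and a ratio of 1.40 (1.22 to 1.61). B3gnt7 was lowest at −0.33.

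The collagens and other matrix genes that SLRPs bind were near the control. Of 18 listed, 13 were measured, all above the level, with a median of 0.03 (just below 0 with upper quartile scaling), 0 at least 1.5-fold higher and 1 lower. Col1a1, of type I collagen, was 2.25 times as abundant per length as Bgn in the anti-miR library and 2.22 times in the control. Fbln1, of fibulin-1, which binds versican, was highest, with 41.1 RPM in the anti-miR library and 27.8 RPM in the control, a ratio of 1.48 (1.31 to 1.68). Col2a1, the cartilage collagen gene, was lowest, with 88.6 RPM and 138 RPM, a ratio of 0.641 (0.598 to 0.687).

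Of 12 TGF-beta ligands and reported SLRP receptors, 11 were measured, all above the level, with a median of 0.05, 1 at least 1.5-fold higher and 1 lower. Lrp1, an endocytic receptor for decorin, had 3050.4 RPM in the anti-miR library and 2765 RPM in the control. P2rx7, an ATP-gated channel of macrophages linked to biglycan signalling, had 229 reads against 102, a ratio of 2.43 (1.92 to 3.10). Met, the hepatocyte growth factor receptor that decorin binds, had 31 reads in the anti-miR library and 100 in the control, a ratio of 0.335 (0.217 to 0.506).

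**Figure D4:**
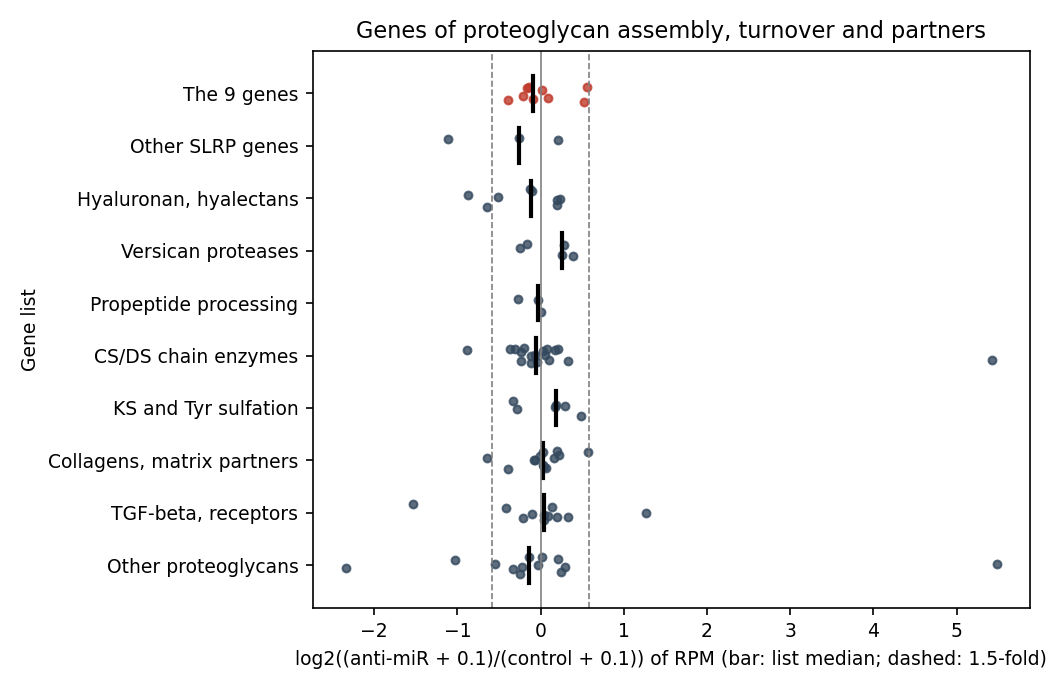
The log2 ratio of anti-miR over control (horizontal axis) is drawn for each gene averaging 1 RPM or more in the 9 genes (red) and in 9 related lists (dark blue), with a black bar for the list median and dashed lines at 1.5-fold. The list medians lie between −0.26 and 0.25, and the points beyond 5 are Chst7 and Prg4, each at 0 reads in the control.

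Markers of the cells that could supply these transcripts were set beside the members, and their part in the results was not tested. The 12 fibroblast markers had a median log2 ratio of 0.04, ranging from −0.19 to 0.56, with 0 at least 1.5-fold apart. Dcn lay at the upper end of that range with Fbln1, also a fibroblast marker here, and Prelp lay below it. The 3 tendon or cartilage markers above the level, of 5 measured, had a median of −0.26, with 0 higher and 1 lower, and a summed level of 201 RPM in the anti-miR library and 262 RPM in the control; Tnmd and Matn1 had 0 reads in both. The 9 macrophage markers above the level had a median of 0.05, ranging from −0.57 for C1qa to 0.42 for Lyz2. Of these, 0 were 1.5-fold apart, and Cd163 had 0 reads in both libraries. The 5 smooth muscle markers had a median of 0.01, or −0.01 with TMM scaling, with 0 apart and sums of 1115 and 1110 RPM. The 7 cardiomyocyte markers above the level had a median of 0.21, with 2 higher and 1 lower, and the median was 0.72 with no floor. The 6 endothelial markers above the level had a median of 0.65, with 3 higher and 2 lower. Over the 7 measured, the sums were 62.2 and 37.6 RPM, of which Flt1 gave 44.9 and 24.7 RPM. Pecam1 had 50 reads against 0, and Plvap 0 against 33. The 6 epicardial markers above the level had a median of −0.30, or 0.03 with a floor of 10 RPM, with 0 higher and 2 lower. Over the 7 measured, the sums were 148 and 146 RPM.

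The genes most like Bgn in level over the 2 libraries, by distance on the log2 scale, were Ctsd (0.38), Psap (0.39) and Eln (0.49). Those most like Dcn were Sh3pxd2a (0.05), Plcb3 (0.05) and Cse1l (0.05), with log2 ratios of 0.50, 0.51 and 0.50. With 2 libraries this likeness describes 2 values per gene.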

How the data were processed

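RNA-seq was read from 1 deposited table of 2 columns, 1 library each, holding the authors' signal: reads on each gene, scaled. HOMER was run, per the file headers, on exons of the RefSeq annotation of rn4, counting on the opposite strand, without adjusting totals and keeping 1 transcript per gene; STAR 2.2.0c and CASAVA 1.8.2 are named per the submitters' processing notes without a role. How reads matching several places were treated: not given in the sources used here. Both columns sum to nearly the same signal, so the authors scaled them after counting. The exon length, another kind of deposited value, was used for RPKM.

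Whole reads were recovered: 1 read is worth 1.04 in the anti-miR and 0.962 in the control column, and 100% of values up to 400 reads in each were whole within 0.005. Ratios used Clopper-Pearson intervals (scipy 1.17.1), a pseudocount of 0.1 RPM and a floor of 1 RPM on the mean; the recovery of reads and the intervals were tested on simulated data. TMM factors came from edgeR 4.0.16 (R 4.3.3). A count test on the reads, an exact binomial test with Benjamini-Hochberg adjustment, was an alternative; it compares the 2 libraries, not the conditions. All 9 members are named. In each other list the most abundant gene and the highest and lowest ratios are named. Members of a short list at 0 reads and the remaining cardiomyocyte markers were added after their values were seen. Members and lists were chosen with earlier results of these data known.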

Additional observations from a re-analysis of the deposited data

How the results depend on the processing

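The 9 member ratios were recomputed with other pseudocounts (1 and 0.01 RPM) and scalings. A floor decides only which genes are counted and leaves member ratios unchanged. Direction was kept in 8 of 9 members. Bgn ranged from −0.02 to 0.01 on the log2 scale and was below 0 with median-of-ratios, TMM and upper quartile scaling. These scalings shifted all log2 ratios by 0.02 to 0.03 downward. Only a ratio as near 1 as that of Bgn could change direction, so the kept directions are no check on the other members. The ratio of the members' summed shares was 0.989 with median-of-ratios, 0.989 with TMM and 0.986 with upper quartile scaling, and 0.998 without Bgn. With a limit of 25% higher or a ratio of 0.8, 2 members were higher and 1 lower. Of the 5101 genes averaging 30 RPM or more, 10.3% and 8.51% were. An exact binomial test on reads with Benjamini-Hochberg adjustment called 3 members higher and 5 lower, while it called 6018 of 10365 genes (31.7% higher, 26.4% lower); it compares these 2 libraries only. The count of all genes at least 1.5-fold higher was 1124, against 1891 with no floor and 431 with a floor of 10 RPM, and the count at least 1.5-fold lower was 887, against 1275 and 287. With 25% or 0.8 the counts were 2247 and 1823, and at 2-fold 503 and 369. The median of the 9 members stayed within the counting interval of its middle gene, Lum, under each pseudocount and scaling tried and without Bgn. That interval is not an error of the median over 9 genes. The floors could not change this median, and the scaling shifts were small beside the interval. Of 230 recomputed values for single members, list medians and all genes, 208 stayed within their limits and 22 moved. The limit was the counting interval for a ratio, that of the middle genes for a median, and 1.5-fold for a count of genes. Member ratios could not move under another floor, and gene counts at another fold differ by construction. The tally is therefore not a measure of stability. A sign changed 10 times, in 6 values that all lay within 1.5-fold of the control: Bgn, the all-gene median, and the smooth muscle, collagen, hyaluronan and epicardial medians. No paired analysis was possible because each group had 1 library. Depth limits genes with few reads, such as Optc and Hapln3, more than the 9 members.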

Other observations

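Other proteoglycans of the cell surface and matrix were measured beside the SLRPs. Of 21 listed genes, 18 were measured and 13 had a mean of at least 1 RPM, with a median log2 ratio of −0.14, 1 at least 1.5-fold higher and 2 lower; keeping only genes of 10 RPM or more, the median was −0.03. Sdc2, the syndecan gene with the most reads, had 716 RPM in the anti-miR library and 733 RPM in the control, a ratio of 0.977 (0.951 to 1.003). Prg4, encoding lubricin of joint surfaces, had 65 reads in the anti-miR library and 0 in the control. Its RPM was 23.4 times that of the floor of 3 reads per library, and the exact lower 95% limit of its ratio was 18.5. Esm1, an endothelial dermatan sulfate proteoglycan, had 9 reads in the anti-miR library and 56 in the control, a ratio of 0.174 (0.0756 to 0.354). Spock1 and Spock3, testican genes, had 0 reads in both libraries.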
